A study of Homo sapiens with 48 samples.

Results

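The libraries described here follow the loss of messenger RNA in control cells of NGP, a human neuroblastoma line that its labels call MYCN-amplified and of wild-type genotype. Neuroblastoma is a tumour of the sympathetic nervous system. The cells had been kept in DMSO, a solvent, for 3 or 6 days and had then received actinomycin D at 10 µg/ml for 0 or 6 h, and their poly(A) RNA was sequenced. Libraries were chosen by these labels: 2 for each combination of duration and time, 4 at 0 h and 4 at 6 h, which makes 8 of the 48 libraries of the series. The other libraries hold cells given STM2457, an inhibitor of the m6A methyltransferase METTL3, or cells of Kelly, another neuroblastoma line labelled in the same way. NGP libraries with the inhibitor entered only an alternative fit over all 24 NGP libraries, whose counts are given at the end. The 4 NGP libraries with DMSO at 3 h of actinomycin D gave intermediate values, and the 8 Kelly libraries with DMSO at 0 or 6 h served for one comparison of the lines. The question was which genes and functions had short-lived and which had long-lived mRNA in these cells. NGP is a single line, and whether replicates were grown apart is not stated in the labels, so p-values measure the spread between these libraries, which may be technical.

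Actinomycin D binds DNA and blocks the synthesis of new RNA, so that the level of an mRNA then follows its degradation. In mammalian cells most mRNAs are degraded after their poly(A) tail has been shortened, by removal of the cap and digestion from the ends. Sequences in the 3′ untranslated region (UTR), such as AU-rich elements and the sites of Pumilio proteins, recruit the enzymes that shorten the tail. Messages for regulators of transcription and signalling are known to be short-lived as a class, and those for enzymes of central metabolism and for ribosomal proteins to be long-lived. The mRNAs of the replication-dependent histones form a class apart: they end in a conserved stem-loop in place of a poly(A) tail and are made during DNA synthesis.

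Levels are given as CPM, the count of a gene scaled to the library's total in genes, with library sizes adjusted by the trimmed mean of M-values (TMM). Changes are log2 values of 6 h minus 0 h, averaged over both durations, from edgeR's quasi-likelihood test, and a gene was called at a Benjamini-Hochberg adjusted p under 0.05 over all genes tested. TMM sets the typical gene to about no change, so a gene called higher lost less than the typical gene or rose. TMM scaling alone cannot tell these apart, so such a call does not show that more was made. The libraries also hold ERCC spike-in RNAs, and scaling to these gives an estimate of the share of the 0 h level that was left at 6 h. The labels do not tell when the spike-ins were added, so this share is an estimate under the assumption that they followed the same amount of cells. In bulk RNA it cannot be told apart from a loss of cells or of total RNA per cell.

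The 0 h libraries held 11993189 to 16999084 fragments in genes and the 6 h libraries 14624300 to 21942238. The ERCC share of all fragments rose from 0.283 to 0.329% at 0 h to 0.410 to 0.594% at 6 h, and at 6 h it was 0.410 and 0.431% at 3 days and 0.589 and 0.594% at 6 days. Replicates differed from each other by more than sampling noise (chi-square of 6.58 to 15 per degree of freedom). Of 12 marker genes of adrenergic neuroblastoma, 11 were at 1 CPM or more in every 0 h library, and the exception was TH, the first enzyme of catecholamine synthesis, at 0.190 to 1.17 CPM. No endothelial marker of 5 reached that level in every 0 h library, and 1 leukocyte marker of 7 (CD68) and 1 Schwann cell marker of 5 (SOX10, at 1.14 to 1.95 CPM) did, while PTPRC, VWF and CDH19 had no fragment there. The adrenergic markers summed to 9661 to 12322 CPM at 0 h and to 3211 to 3750 CPM at 6 h. Of 10 mesenchymal markers, 8 were at 1 CPM or more and DCN was at 0, and their summed level was 558 to 675 CPM at 0 h and 494 to 552 CPM at 6 h.

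Of 19923 protein-coding genes counted, 13591 had enough fragments to be tested and 3493 had none in any of the 8 libraries. After 6 h of actinomycin D, 6313 genes (46.4% of those tested) were called, 3261 lower (24%) and 3052 higher (22.5%). The falls were the larger changes: 1636 genes (12%) were called lower by at least 2-fold and 140 (1.03%) higher by as much. For 4995 genes (36.8%) the 4 libraries at 6 h did not overlap the 4 at 0 h. On the ERCC scale the median gene had 51.3% of its 0 h level left, and 5% of the genes had less than 12.3% left and another 5% more than 96.5%. In classes, 2111 genes (15.5%) had under 25% left, 4433 (32.6%) 25 to 50%, 4500 (33.1%) 50 to 75%, 1990 (14.6%) 75 to 100% and 557 (4.10%) 100% or more. With that scaling 9927 genes (73.0%) were called lower and 21 (0.155%) higher, as the median change moved by -0.92 on the log2 scale. Scaling by library size alone gave 4409 lower and 1785 higher, with a shift of -0.21, and scaling to long-lived reference transcripts 8969 lower and 64 higher, with a shift of -0.77. Long-lived in what follows therefore means that more was left than of the typical gene.

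**Figure D1:**
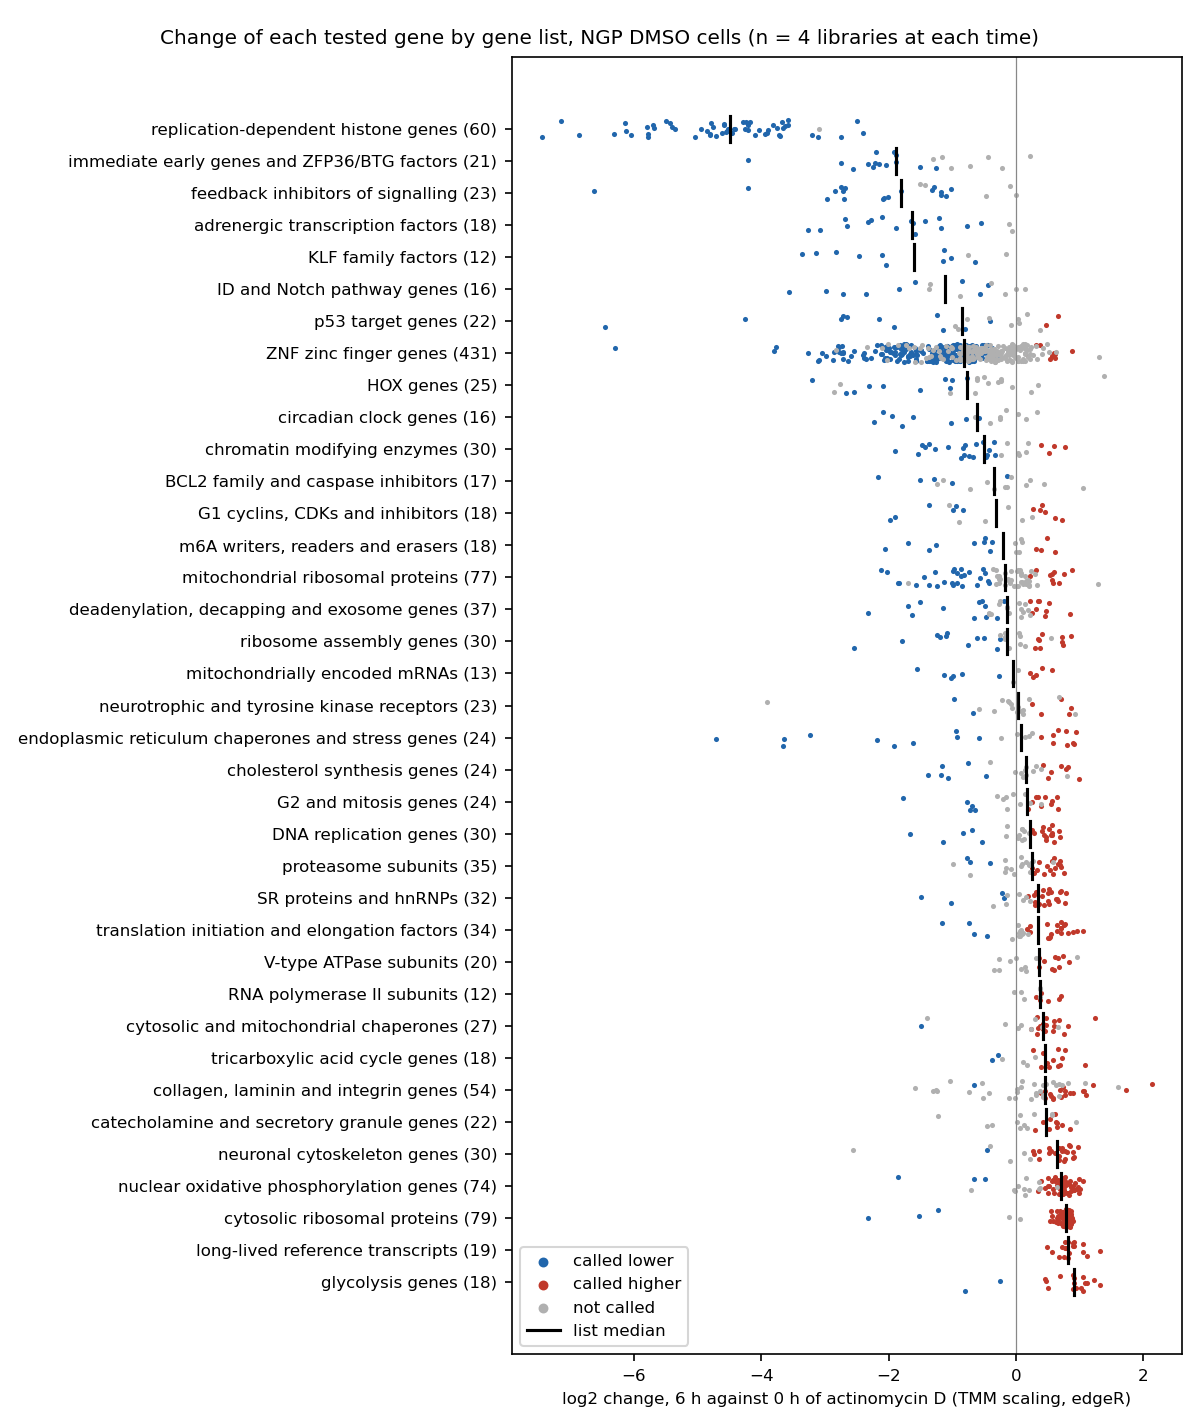
Log2 change of each tested gene between 6 h and 0 h of actinomycin D (x axis, TMM scaling), by gene list (rows, with the number of tested genes), in NGP cells kept in DMSO with 4 libraries at each time. Each point is a gene, coloured by whether it was called lower, higher or neither, and the bar marks the list's median, from -4.49 in the histones to 0.91 in glycolysis.

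The replication-dependent histones lost the most mRNA of all groups. Of 67 genes of this family, 60 could be tested and 59 were called lower, none higher, with a median log2 change of -4.49 and a median of 2.35% left. All histone types shared it: the median change was -5.78 for the 5 tested genes of the linker histone H1, -5.27 for the 12 of H3, -4.58 for the 13 of H2A, -4.29 for the 17 of H2B and -3.76 for the 13 of H4. Their summed level at 0 h was 9807 and 9973 CPM at 3 days and 12408 and 14033 CPM at 6 days, and at 6 h it was 493 to 565 CPM. The family thus went from 1.05 to 1.51% of all fragments in genes to 0.0450 to 0.0531%.

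The 3′ ends of these mRNAs are shown because they share a sequence that few other messages hold. The stem-loop was found in the 3′ UTR of 66 of 66 histone genes that matched a canonical transcript (GENCODE release 44, GRCh38). It stood anywhere in the 3′ UTR of 23 of 18909 other genes (0.122%). It is printed here 5′ to 3′ on the transcript's strand for 6 histone genes with large falls, with the stem-loop in capitals and its flanks in lower case.
H2BC11 (chr6:27132316-27132343, minus strand): ccctaacGGCTCTTTTAAGAGCCaccca
H1-5 (chr6:27866792-27866819, minus strand): ccccaaaGGCTCTTTTCAGAGCCaccca
H3C3 (chr6:26045842-26045869, plus strand): ttgaaaaGGCTCTTTTCAGAGCCactca
H3C7 (chr6:26250142-26250167, minus strand): aaccaaaGGCTCTTTTCAGAGCCacc
H1-4 (chr6:26157088-26157115, plus strand): acccaaaGGCTCTTTTCAGAGCCaccca
H1-3 (chr6:26234212-26234239, minus strand): tttaaacGGCTCTTTTCAGAGCCaccca
All 6 sites lie in the histone clusters of chromosome 6.

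H1-4, a linker histone gene, was at 749.9 and 783 CPM at 3 days and 1182 and 1297 CPM at 6 days before actinomycin D, and at 12.1 and 17.7 CPM and 20.1 and 22.8 CPM after 6 h. Every library at 6 h was far below every library at 0 h (log2 change -5.78, SE 0.0984, adjusted p = 1.7e-19), with 0.961% left. H3C3, which encodes histone H3.1, went from 285 and 305 CPM at 3 days and 316 and 378 CPM at 6 days to 3.47 and 5.01 CPM and 5.14 and 4.70 CPM (log2 change -6.13, SE 0.117, adjusted p = 7.8e-19). The largest histone change by the naming rule was that of H2BC11, from 90.7 and 102 CPM and 130.0 and 153 CPM to 0.399 and 0.598 CPM and 1.83 and 0.289 CPM, a log2 change of -7.15 (SE 0.247). These levels come from libraries selected for poly(A) tails, which histone mRNAs normally lack, so they describe the histone RNA that passed the selection and not the whole pool. H3C12 (log2 change -6.04) shares 44.6% of its exon bases with another gene, and its counts are uncertain.

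Outside the histones, the 12 largest falls were chosen by their size, after the values were seen. FUT1, a fucosyltransferase of blood-group antigens, had 785 fragments in the 0 h libraries, 13 of them at 3 days, and 1 fragment in the 6 h libraries, a ratio of 846 with a 95% counting interval of 151 to 33457. Its level at 0 h was 0.857 and 0.146 CPM at 3 days and 17.6 and 28.3 CPM at 6 days. The fall of FUT1 thus rests on the 6 day libraries. At 3 h of actinomycin D these held FUT1 at 17.0 and 12.5 CPM, and both 3 day libraries were at 0. Over both durations the mean was at 62.8% of its 0 h level at 3 h and at 0.10% at 6 h. Most of the fall of FUT1 thus came between 3 and 6 h. DDIT4, an inhibitor of mTORC1 induced by stress, was at 19.9 and 21.9 CPM and 205 and 221 CPM at 0 h, and at 0.74 and 1.2 CPM and 3.22 and 4.12 CPM at 6 h (log2 change -5.49, SE 0.215, adjusted p = 4.7e-14). At both durations the fall was far larger than the gap between replicates, although the starting levels at 3 and 6 days lay far apart.

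Some of the other large falls likewise started higher at 6 days. TRIB3, a pseudokinase of the amino acid stress response, fell from 7.24 and 4.59 CPM at 3 days and 63.8 and 74.4 CPM at 6 days to 0.289 to 2.47 CPM (log2 change -4.71, SE 0.727, adjusted p = 2.0e-05). SESN2, a sestrin that restrains mTORC1, was at 6.00 and 4.23 CPM and 70.7 and 76.7 CPM at 0 h and at 0.145 to 2.40 CPM at 6 h (log2 change -4.26). In both genes the groups were apart in every library. RGS16, a brake on G protein signalling, changed by -4.59, NXT1, an mRNA export cofactor, by -4.23, the GTPase RASL11B by -4.02 and SAC3D1 by -4.29. DUSP6, the phosphatase that shuts off ERK, fell from 27.1 and 14.7 CPM and 22.4 and 17.2 CPM to 0.342 to 2.39 CPM (log2 change -4.21, SE 0.421, adjusted p = 7.2e-08).

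The transcription factors that define adrenergic neuroblastoma had short-lived messages. Of 18 such genes 16 were called lower and none higher, with a median change of -1.64 and a median of 17.1% left. MYCN, the amplified oncogene (chr2:15940550-15947007 on GRCh38), was among the most abundant mRNAs, at 5678 and 5565 CPM at 3 days and 6521 and 8615 CPM at 6 days before actinomycin D. At 6 h it was at 547 and 543 CPM and 821 and 878 CPM. The spread between libraries was small next to this drop (log2 change -3.26, SE 0.066, adjusted p = 1.7e-18), and 5.52% was left. ISL1, a LIM homeodomain factor, went from 123 and 118 CPM and 98.7 and 97.1 CPM to 32.1 and 26.7 CPM and 20.6 and 23 CPM (log2 change -2.10, SE 0.107, adjusted p = 3.5e-12). The libraries of the 2 times did not overlap. HAND2, a basic helix-loop-helix factor, changed by -1.58 and GATA3 by -1.42. The factors named here thus differed in how much was left, from 5.52% of MYCN to 19.7% of GATA3. The smallest fall in the whole list was that of DACH1 (-0.05).

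Other regulators of transcription were lost as well. Among 21 tested immediate early genes and related mRNA decay factors, 14 were called lower and none higher, with a median of -1.89 and 14.1% left. JUN, a subunit of AP-1, was at 42 and 45.9 CPM at 3 days and 80.9 and 99.2 CPM at 6 days before and at 7.91 and 13.1 CPM and 7.60 and 9.48 CPM after (log2 change -2.75, SE 0.229, adjusted p = 5.4e-09). ATF3, a stress-induced factor, changed by -4.21. Of 12 KLF factors 10 were called lower (median -1.60), among them KLF10 by -3.14 and KLF9 by -2.83. Of 16 genes of the ID family and the Notch pathway 9 were called lower (median -1.11), and ID2, an inhibitor of basic helix-loop-helix factors, went from 74.8 and 77 CPM and 29.7 and 27.1 CPM to 7.63 and 10.8 CPM and 5.87 and 5.06 CPM (log2 change -2.72). None of these lists held a gene called higher.

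The zinc finger genes named ZNF, most of which encode DNA-binding repressors, made up the largest list. Of 505 counted, 431 were tested, 238 called lower and 9 higher, with a median of -0.81 and 30.2% left. ZNF614 and ZNF503 showed the largest falls by the naming rule, -3.80 and -3.77, while ZNF385A, an RNA-binding protein with another kind of finger, was called higher by 0.89. Of the 1574 genes called lower by at least 2-fold outside the histone and mitochondrial genes 8.83% were ZNF genes, and of the 3047 called higher 0.295% were, beside 3.19% of all genes. Of 39 HOX genes, which set position along the body axis, 25 were tested and 10 called lower (median -0.77), and HOXD13 changed by -2.67. Of 16 circadian clock genes 8 were called lower (median -0.62), including the clock output factor TEF (-2.09) and the clock repressor NR1D1 (-1.94). Chromatin modifying enzymes were less uniform: 20 of 30 were called lower and 4 higher (median -0.49). EP300, a histone acetyltransferase, fell from 237 and 256 CPM and 223 and 214 CPM to 55.3 and 64.3 CPM and 60.4 and 70.3 CPM (log2 change -1.89), and ARID1A, a subunit of the BAF remodelling complex, changed by -1.53, whereas SMARCA4, the ATPase of that complex, and the deacetylase HDAC1 were called higher by 0.59 and 0.78.

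Of 23 tested feedback inhibitors of signalling, such as dual-specificity phosphatases and Sprouty proteins, 18 were called lower and none higher (median -1.81, 15.2% left). They include AXIN2, the feedback inhibitor of Wnt signalling, with a change of -2.97. Of 22 p53 target genes 11 were called lower and 2 higher (median -0.85): GADD45A, a DNA damage response gene, changed by -2.75, while CCNG1, cyclin G1, was called higher by 0.66. Of 17 genes of the BCL2 family and caspase inhibitors 5 were called lower and none higher (median -0.34), a share called lower near that of all tested genes (24%). MCL1, a survival protein known for rapid turnover, went from 189 and 189.6 CPM and 156 and 153 CPM to 66.2 and 57.7 CPM and 84.8 and 73.8 CPM (log2 change -1.28, SE 0.113, adjusted p = 1.2e-08), and BCL2L11, the pro-apoptotic BIM, changed by -1.51.

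Cell cycle genes included both kinds of message in each list, as did all tested genes (24% called lower and 22.5% higher). The share called lower was 33.3% in the G1 list, 16.7% in replication and 20.8% in mitosis. The share called higher was 33.3, 50 and 41.7% in the same order. Of 18 cyclins, kinases and inhibitors of G1 phase 6 were called lower and 6 higher (median -0.31), with CCNE1, cyclin E1, and the transcription factor E2F2 at the low end (-1.98 and -1.91). CDK2 was called higher by 0.72. Of 30 DNA replication genes 5 were called lower and 15 higher (median 0.23, 61.9% left). CDT1, which licenses replication origins, fell from 62.8 and 67.2 CPM and 80.3 and 89.5 CPM to 22.3 and 24.4 CPM and 21.4 and 25.8 CPM (log2 change -1.67), whereas the helicase subunit MCM4 and the single-strand binding subunit RPA1 were called higher by 0.68 and 0.69. Of 24 genes of G2 phase and mitosis 5 were called lower and 10 higher (median 0.17). The mitotic kinase PLK1 fell from 178 and 163 CPM and 82.3 and 74 CPM to 39 and 70.0 CPM and 18.7 and 23.5 CPM, a log2 change of -1.77, and at each duration both 6 h libraries were below both 0 h libraries. The medians of the 3 lists, over all tested members, were 43.3, 61.9 and 59.5% left on the ERCC scale.

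**Figure D2:**
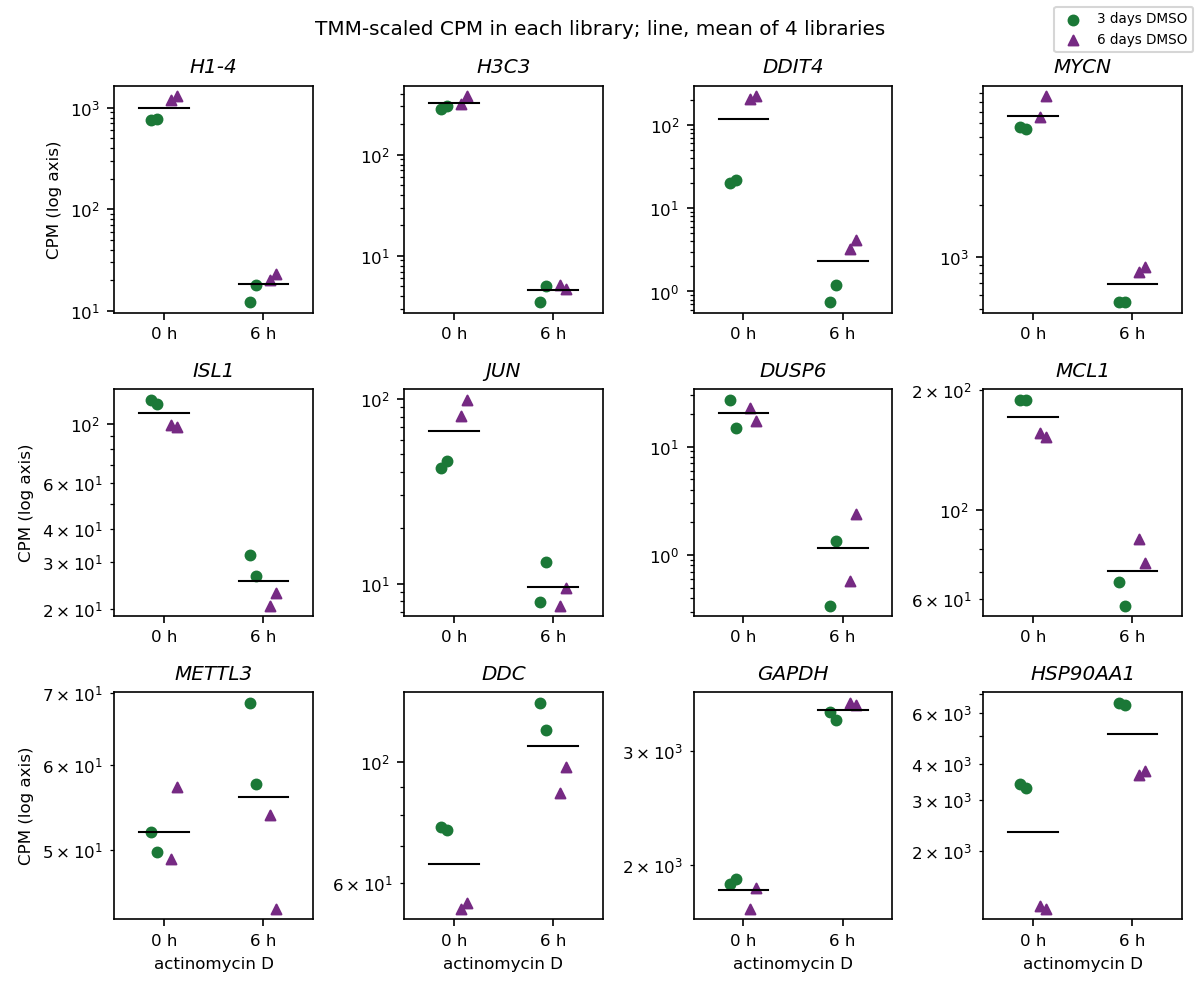
TMM-scaled CPM (log axis) of 12 genes in each library at 0 h and 6 h of actinomycin D; circles are libraries with 3 days and triangles with 6 days of DMSO, and the line is the mean of the 4 libraries. H1-4, H3C3, DDIT4 and MYCN lie well apart between the times, GAPDH and DDC lie higher at 6 h, and METTL3 overlaps.

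At the other end stood the messages for protein synthesis and energy metabolism. Of 79 cytosolic ribosomal protein genes 74 were called higher and 3 lower, with a median of 0.79 and 91.2% left on the ERCC scale. RPS20, a small-subunit protein, went from 451 and 462 CPM and 577 and 559.7 CPM to 859.6 and 834 CPM and 1025 and 1048 CPM (log2 change 0.88), with all 6 h libraries above all 0 h libraries. The exceptions included RPL36A (-2.32). Ribosomal protein genes have many near-identical pseudogene copies, and how such reads were counted is not given in the sources used here. Of 34 translation initiation and elongation factors 20 were called higher and 4 lower (median 0.35, 67.9% left), with EIF3I, a subunit of the initiation factor that binds the small ribosomal subunit, at 1.05 and EIF5, which acts in start codon selection, at -1.17.

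Of 74 nuclear genes of oxidative phosphorylation 59 were called higher and 3 lower (median 0.71, 86.5% left). COX6B1, a subunit of cytochrome c oxidase, went from 48.7 and 47.3 CPM and 52.9 and 49.2 CPM to 104 and 113 CPM and 81.7 and 100.1 CPM (log2 change 1.00). All libraries at 6 h were above those at 0 h. UQCRFS1, the iron-sulphur subunit of complex III, went the other way (-1.85), and so did 2 more genes of the list. Of 18 tested glycolysis genes 16 were called higher and 2 lower, with a median of 0.91 and 99.8% left, the highest median of the lists. GAPDH was at 1870.3 and 1907 CPM and 1714 and 1845 CPM at 0 h and at 3435 and 3345 CPM and 3556 and 3532 CPM at 6 h (log2 change 0.92, SE 0.0398, adjusted p = 2.6e-13). ENO1, enolase, was called higher by 1.06 and GPI, glucose phosphate isomerase, by 1.23, and so was ALDOA, aldolase, by 1.32, which shares 43% of its exon bases with another gene. The glucose transporter SLC2A1 was called lower (-0.81), although not in the 6 day libraries alone. Of 18 genes of the tricarboxylic acid cycle 12 were called higher and 2 lower (median 0.46, 72.6% left), with IDH3G, a subunit of isocitrate dehydrogenase, at 1.09 and MDH2, malate dehydrogenase, at 0.77.

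Structural and neuronal genes also had long-lived messages. Of 30 genes of the neuronal cytoskeleton 24 were called higher and 1 lower (median 0.65, 82.8% left). GAP43, a growth cone protein, went from 87.6 and 97.5 CPM and 45.7 and 60.9 CPM to 181 and 181 CPM and 100.4 and 109.9 CPM (log2 change 0.97), higher at each duration. TMSB10, an actin-binding thymosin, was called higher by 0.91, and ACTB, beta-actin, by 0.89, while the tubulin gene TUBB4B was called lower (-0.46) with libraries that overlapped, and was not called without the duration term. Of 22 tested genes of catecholamine synthesis and secretory granules 10 were called higher and none lower (median 0.47, 73.5% left). DDC, the enzyme that makes dopamine, went from 75.9 and 75.1 CPM and 53.8 and 55 CPM to 128 and 114 CPM and 87.8 and 97.9 CPM (log2 change 0.73), and PCSK1N, a granule peptide, was called higher by 0.84. Of 54 tested genes of collagens, laminins and integrins 21 were called higher, among them COL18A1 (1.09), and 1 lower (median 0.46, 72.7% left). LAMB1, a laminin chain, was the member called lower (-0.66). Outside this list, AGRN, a heparan sulphate proteoglycan of synapses, was called higher by 1.21 and ELN, elastin, by 1.32. Of 23 neurotrophic and tyrosine kinase receptors 5 were called higher, a share near the 22.5% of all tested genes, and 2 lower, among the latter NGFR (-0.67), the low-affinity neurotrophin receptor.

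Chaperones followed the same direction. Of 27 cytosolic and mitochondrial chaperone genes 18 were called higher and 1 lower (median 0.42, 70.9% left). HSP90AA1 went from 3414 and 3312 CPM at 3 days and 1287 and 1260.2 CPM at 6 days to 6520.2 and 6404 CPM and 3677 and 3770.3 CPM (log2 change 1.24, SE 0.0764, adjusted p = 6.5e-11). The 6 h libraries of 6 days lay close above the 0 h libraries of 3 days, since the starting level differed by duration. DNAJB1, a heat-inducible partner of HSP70, was the member called lower (-1.49). The 10 largest rises by the naming rule had ERCC estimates above 100%, which none of the other groups reached at its median. AMH, a hormone of the TGF-beta family, was at 15.3 and 18.6 CPM and 11.6 and 11.7 CPM at 0 h and at 42.4 and 46.5 CPM and 36.1 and 46.2 CPM at 6 h (log2 change 1.60, SE 0.162, adjusted p = 7.8e-08), an estimate of 161%. CHTF18, a clamp loader subunit (1.40, 139%), HSF4, a heat shock factor (1.31, 131%), and MAN2C1, a mannosidase (1.28, 128%), were of the same kind. AMH, CHTF18 and MAN2C1 were among the 21 genes called higher on the ERCC scale, and HSF4 was not.

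Several machines of gene expression held both kinds of message, as did the tested genes at large (24% called lower and 22.5% higher). Of 77 mitochondrial ribosomal proteins 27 were called lower and 10 higher (median -0.17, 47.0% left), with MRPL44 at -2.12 and MRPL33 at 0.89, in contrast to their cytosolic counterparts. Of 30 ribosome assembly genes 11 were called lower and 9 higher (median -0.14): NOP16, a nucleolar assembly factor, fell from 42.7 to 44 CPM at 0 h to 6.49 to 8.68 CPM at 6 h (log2 change -2.55), while NOLC1, a nucleolar scaffold, was called higher by 0.74. The m6A machinery included 9 of 18 genes called lower and 4 higher (median -0.20, 46.5% left). YTHDF2, the reader that brings m6A-marked mRNA to degradation, went from 152 and 155 CPM and 142 and 122 CPM to 34.6 and 32.9 CPM and 37.2 and 31.4 CPM (log2 change -2.06, SE 0.102, adjusted p = 2.0e-12), and the eraser FTO was called higher by 0.61. METTL3, the catalytic subunit of the writer, was at 51.9 and 49.8 CPM and 49 and 57.2 CPM at 0 h and at 68.5 and 57.6 CPM and 53.8 and 44.1 CPM at 6 h. Its libraries overlapped and it was not called (log2 change 0.10, SE 0.126, adjusted p = 0.57).

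Of 37 genes of deadenylation, decapping and the exosome 13 were called lower (35.1%) and 9 higher (24.3%), with a median of -0.14. The share called higher is near the 22.5% of all tested genes, of which 24% were called lower. TOB1, an adaptor of the CCR4-NOT complex, was at -1.70 and PAN2, a deadenylase, at 0.86. Of 32 SR proteins and hnRNPs 21 were called higher and 4 lower (median 0.34, 67.2% left). HNRNPA1 was called higher by 0.79, whereas the kinases of SR proteins in the list, CLK1 and CLK4, were called lower (-1.49 and -1.02), CLK4 not in the 6 day libraries alone. Of 35 proteasome subunits 16 were called higher and 3 lower (median 0.26), of 20 subunits of the V-type ATPase 10 higher and none lower (median 0.36), and of 12 subunits of RNA polymerase II 6 higher and none lower (median 0.38). Of 24 genes of the endoplasmic reticulum 10 were called lower and 9 higher (median 0.08): the disulphide isomerases PDIA3 and PDIA6 were called higher by 0.95 and 0.92, and the stress factor DDIT3 was called lower (-3.66), which shares 39.6% of its exon bases with another gene. Of 24 cholesterol synthesis genes and their regulators 6 were called lower (25%) and 7 higher (29.2%), with a median of 0.16. These shares are near the 24 and 22.5% of all tested genes. INSIG1, which holds back sterol synthesis, was called lower (-1.17, not in the 6 day libraries alone) and HMGCS1, a synthesis enzyme, was called higher by 0.99.

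The 13 mRNAs encoded in mitochondrial DNA, which are made by another polymerase, also differed among themselves: 6 were called lower and 5 higher (median -0.05, 51.2% left). MT-ND2, a subunit of complex I, went from 2034 and 2102 CPM and 3036 and 2841 CPM to 625 and 685 CPM and 1115 and 1029 CPM (log2 change -1.56, SE 0.0511, adjusted p = 3.7e-15). MT-CO1, a subunit of cytochrome c oxidase, went from 9382 and 9495 CPM and 10319 and 9176 CPM to 13796 and 14772 CPM and 14694 and 13395 CPM (log2 change 0.56, SE 0.0352, adjusted p = 8.3e-11). Their libraries did not overlap between the times, in opposite directions. MT-ND5 and MT-ND1 were called lower (-1.13 and -1.01), and these transcripts are cut from common precursors.

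Sequence and structure of the transcripts differed between short-lived and long-lived genes, described here over 13518 tested genes outside the histone and mitochondrial genes. Exon number went with the change: of 325 genes with 1 exon 40.6% were called lower and 9.23% higher, and of 4443 genes with more than 15 exons 18.1% and 27.3% were. The share left by ERCC scaling had a median of 26.6% in the former and 56.2% in the latter, while their median level at 0 h also differed, at 8.72 and 41.6 CPM. Across genes Spearman's rho with the change was 0.201 for exon number, 0.192 for the level at 0 h, -0.0766 for GC content at the third codon position, -0.0536 for 3′ UTR length and 0.0373 for summed exon length (13204 or more genes, which share the same 8 libraries and are not independent). The part of the level at 0 h in the relation to exon number was not tested.

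A Pumilio-type motif, TGTANATA, stood in the 3′ UTR of 4000 of 13204 genes with a canonical transcript (30.3%). Of these 29.2% were called lower, against 21.4% of the genes without it. The median log2 changes were -0.109 and -0.00679. The median level at 0 h also differed, at 37.0 CPM with the motif and 20.6 CPM without it. The part of this level in the shares called was not tested. Longer 3′ UTRs hold more motifs by length alone, so genes were also split into 5 equal classes of 3′ UTR length: in the shortest class 36.3% of 182 genes with the motif were called lower against 15.4% without it, in the next 34.6% of 410 against 22.3%, and in the longest 25.8% against 24.1%. In the shortest class the median log2 changes were -0.283 with the motif and 0.106 without it, at median 0 h levels of 25.9 and 13.5 CPM. The AU-rich nonamer TTATTTATT stood in 1253 genes (9.49%), of which 26.5% were called lower against 23.5% of those without it. Median levels at 0 h were 31.6 CPM with the nonamer and 24.4 CPM without it. In the same classes of 3′ UTR length the gap by the nonamer was not uniform. In the middle class 26.8% of 190 genes with the nonamer were called lower, against 26.8% without it. In the longest class it was 23.6% of 615 against 25.6%. The other classes had a higher share with the nonamer, such as 27.6% of 98 against 24.1% in the next to shortest. A nonamer also stood in genes not called, such as DDR2 (log2 change -0.22). Motifs were searched on the transcript's strand of the canonical transcript, and a match is a description of letters, not a bound site.

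**Figure D3:**
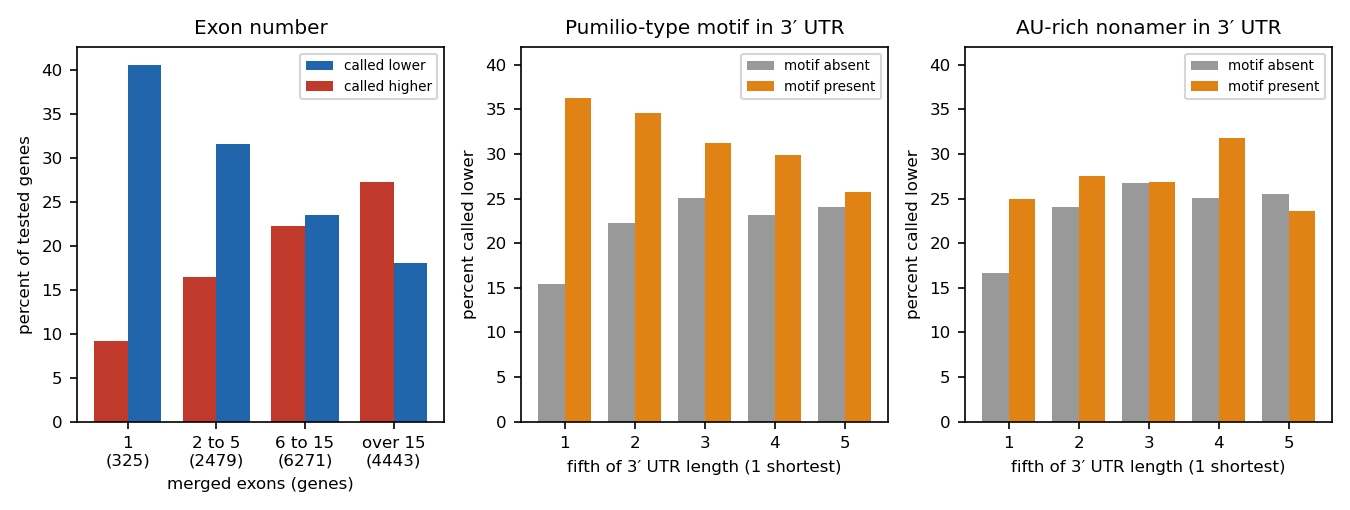
Percent of tested genes called lower or higher by number of merged exons (left), and percent called lower among genes with and without a Pumilio-type motif (middle) or an AU-rich nonamer (right) in the 3′ UTR, by 5 equal classes of 3′ UTR length. The share called lower goes from 40.6% with 1 exon to 18.1% with more than 15, and the gap by the Pumilio-type motif is widest in the shortest class (36.3 against 15.4%).

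Sites are printed for genes described above, because they show where such a motif lies in messages called lower. Each is given 5′ to 3′ on the transcript's strand (GRCh38), with the match in capitals and flanks of up to 10 bases in lower case, first the Pumilio-type motif in MYCN, JUN and DUSP6 and then the nonamer in RGS16, ISL1, DDIT3 and FUT1.
MYCN (chr2:15946487-15946514, plus strand): ggaacatttcTGTAAATAccattgacac
MYCN (chr2:15946919-15946946, plus strand): ttcttcaaaaTGTATATAtttagtgctg
JUN (chr1:58781542-58781569, minus strand): taactgtgtaTGTACATAtatatatttt
DUSP6 (chr12:89348742-89348769, minus strand): atttgattatTGTAAATAtttgatcttg
RGS16 (chr1:182598868-182598896, minus strand): ggtgctgttgTTATTTATTattgtaattt
ISL1 (chr5:51394496-51394524, plus strand): aagtaatttaTTATTTATTgtcggaagac
DDIT3 (chr12:57516616-57516644, minus strand): gattgtacatTTATTTATTactgtcccta
FUT1 (chr19:48749297-48749325, minus strand): ttttttttaaTTATTTATTtatttattta
All lie in the 3′ UTR of the gene's canonical transcript. The motif also stands in long-lived messages such as HNRNPA1, called higher by 0.79: HNRNPA1 (chr12:54285720-54285747, plus strand): atgtgttattTGTACATAgattcttttg

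The libraries at 3 h put these losses in time. With one ERCC scaling over the 12 NGP libraries, the median gene had 74.8% of its 0 h level left at 3 h and 52.1% at 6 h. The histones were at 5.08% and 2.43%, so nearly all of their loss fell in the first 3 h. Immediate early genes stood at 25.4% and 14.4%, adrenergic transcription factors at 32.7% and 17.4%, ZNF genes at 46.6% and 30.3% and chromatin enzymes at 65.2% and 37.6%. Ribosomal proteins were at 106% and 90.9%, glycolysis at 106% and 99.3% and the neuronal cytoskeleton at 100.1% and 83.4%. For single genes, MYCN at 3 h was at 979.6 and 1088 CPM at 3 days and 1602 and 1602 CPM at 6 days, between its levels at 0 and 6 h in every library. H1-4 was at 25 and 37.9 CPM and 51.1 and 60.4 CPM, above its 6 h level and far below its level at 0 h. By duration, the median share left at 6 h was 56.5% at 3 days and 46.5% at 6 days. The 0 h libraries are shared by these values, so they are given without a test.

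**Figure D4:**
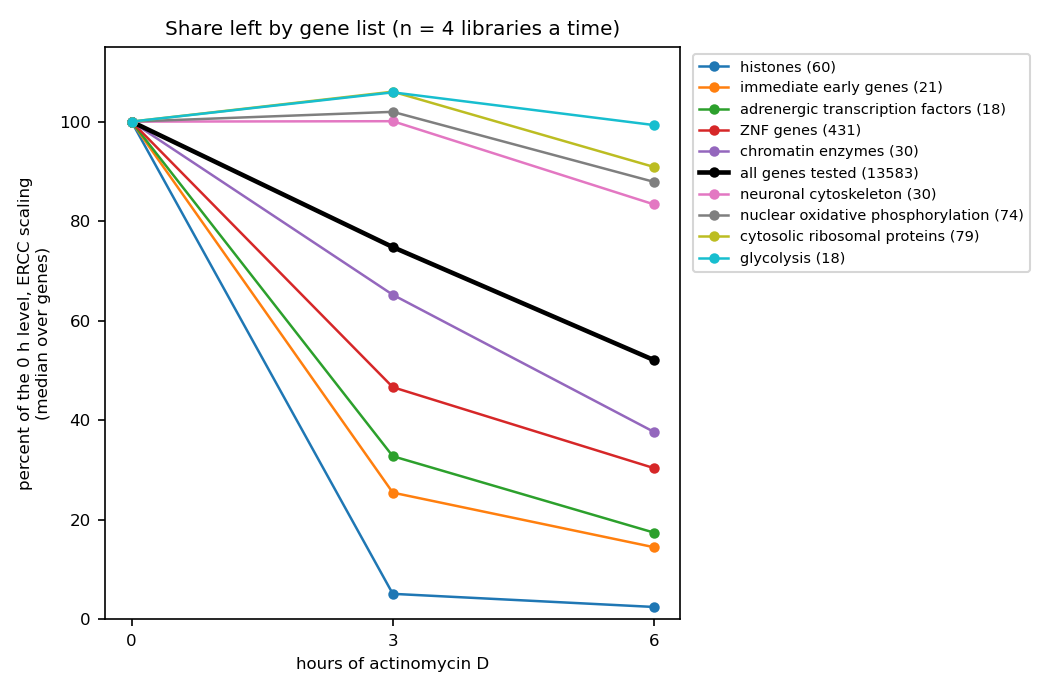
Percent of the 0 h level left (y axis, ERCC scaling, median over the genes of a list) at 0, 3 and 6 h of actinomycin D, with 4 libraries at each time. Histones are at 5.08% by 3 h, adrenergic transcription factors at 17.4% by 6 h, all genes tested at 52.1% and glycolysis at 99.3%.

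The changes at both durations of DMSO were related. Across 12501 genes tested at each duration alone they correlated (Pearson's r 0.685, Spearman's rho 0.727, across genes, which are not independent replicates). At 3 days 5272 genes were called and at 6 days 4782, of which 3602 were called at both (68.3% and 75.3% of each list), 3572 of them in the same direction. The change differed between the durations in 198 of 13591 genes (1.46%), 124 with a more negative change at 6 days (0.912%) and 74 with a more positive one (0.544%). edgeR's test without a dispersion trend called none of them, with 1307 genes at an unadjusted p under 0.05. The count was 358 and 308 when the first or the second 6 h library of 6 days was left out. Of the 124 genes, 101 (81.5%) stood higher at 0 h in both 6 day libraries than in both 3 day libraries, as did 26.7% of all genes; these libraries also enter the difference itself.

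The genes with a more negative change at 6 days included those of amino acid supply and of the response to its lack. ASNS, asparagine synthetase, was at 94.1 and 87.9 CPM at 3 days and 282 and 265 CPM at 6 days at 0 h, and at 144 and 132 CPM and 138 and 130.4 CPM at 6 h. All 4 libraries at 6 h were thus much alike, and the 0 h libraries were not (difference of the log2 changes -1.63, SE 0.139, adjusted p = 1.3e-07). PSAT1, an enzyme of serine synthesis, went from 110.1 and 107 CPM and 315 and 289 CPM to 164 and 179 CPM and 153 and 175 CPM (difference -1.54), and GARS1, glycyl-tRNA synthetase, from 274 and 246 CPM and 534 and 576 CPM to 303 and 289.5 CPM and 234 and 256 CPM (difference -1.37, adjusted p = 1.3e-07). At 3 h of actinomycin D, ASNS was at 123 and 111 CPM at 3 days and 347 and 327 CPM at 6 days. PSAT1 was at 142 and 143 CPM and 367 and 355 CPM, and GARS1 at 300 and 317 CPM and 576 and 602 CPM. At 6 days these levels were near or above those at 0 h. The falls of ASNS, PSAT1 and GARS1 at 6 days thus came between 3 and 6 h on this scale, and the cause was not tested. Of 20 cytosolic aminoacyl-tRNA synthetases 11 had a more negative change and none a more positive one (median difference -0.66), and of 15 genes of serine, glycine and asparagine synthesis and one-carbon metabolism 12 and none (median -0.90). Both lists were written after the values had been seen and describe, but do not test, this group. The stress factors ATF5 and DDIT3 (-2.91 and -2.11) and TRIB3 and SESN2 (-5.54 and -3.63) had the same sign.

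More positive changes at 6 days were found among genes of cholesterol synthesis and glycolysis. Of 24 cholesterol genes 10 were called with a more positive change and none with a more negative one (median difference 0.63), and of 18 glycolysis genes 8 and none (median 0.49). HMGCS1 was at 167 and 175 CPM at 3 days and 88.3 and 81.6 CPM at 6 days at 0 h, and at 225 and 204 CPM and 271 and 262 CPM at 6 h (difference 1.32, SE 0.133, adjusted p = 9.5e-07). HSPA5, the main chaperone of the endoplasmic reticulum, went from 309 and 294 CPM and 157 and 152 CPM to 125 and 125 CPM and 157 and 177 CPM, with a fall at 3 days (-1.27) and little change at 6 days (0.12, difference 1.38). INSIG1, the sterol sensor's partner, had a difference of 1.74 and HSP90AA1 one of 0.61. In HMGCS1, HSPA5 and HSP90AA1 the 0 h libraries of 6 days were below those of 3 days. Of the 74 genes with a more positive change 47 (63.5%) were, beside 26.6% of all genes.

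**Figure D5:**
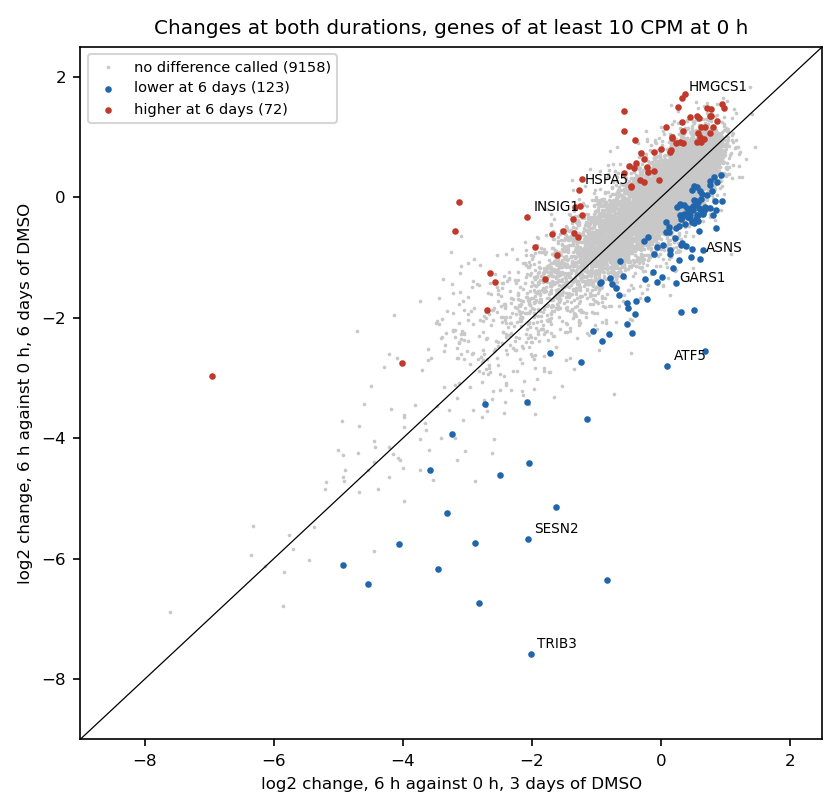
Log2 change between 6 h and 0 h of actinomycin D at 3 days (x axis) and 6 days (y axis) of DMSO, for 9353 genes with at least 10 CPM at 0 h; each point is a gene and the line marks equal change. Genes with a called difference lie off the line, 123 below it and 72 above it, with TRIB3, SESN2, ATF5, GARS1 and ASNS below and INSIG1, HSPA5 and HMGCS1 above.

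Compared with Kelly cells under the same treatment, the change over 6 h differed in 464 of 15350 genes (3.02%), 314 with a more positive change in NGP (2.05%) and 150 with a more negative one (0.977%). RTL1, a retrotransposon-derived gene, had the smallest adjusted p among the latter: its mean fell from 24.6 to 4.24 CPM in NGP and stood at 723 and 965 CPM in Kelly (difference of the log2 changes -2.91, SE 0.132, adjusted p = 1.1e-13). LAMB1 likewise went from 352 to 225 CPM in NGP and from 232 to 290 CPM in Kelly (difference -0.96). In the other direction, MT-ND1 went from 3801 to 1890 CPM in NGP and from 4312 to 567 CPM in Kelly (difference 1.93, SE 0.103, adjusted p = 2.5e-12), and RND3, an atypical small GTPase, from 112 to 23.1 CPM and from 76.1 to 4.49 CPM (difference 1.80). With ERCC scaling the count of genes that differed was 85.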

How the data were processed

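Poly(A) RNA of NGP cells was sequenced, and the submitters' processing notes name Trimmomatic 0.36 and HISAT2 2.1.0 for the reads, FastQC 0.11.5 for their quality, and the build GRCh38 (hg38). The authors deposited unnormalised counts of fragments, made with featureCounts of Subread 1.5.3 on protein-coding genes of GENCODE release 33 with 92 ERCC sequences, per the file headers, which name no option for strand or multi-mapping. Antisense and overlapping genes therefore cannot be told apart. Reads lost to filters before counting are not given in the sources used here.

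Groups came from the sample titles. The test was edgeR's (version 4.0.16, R 4.3.3; quasi-likelihood, TMM, filterByExpr with a minimum count of 10 and total of 15, duration as a covariate, Benjamini-Hochberg adjustment, threshold 0.05). Differences between durations and between lines were interaction terms, the latter over 16 libraries. SEs are the absolute log2 change over the square root of F. limma 3.58.1 (voom) and DESeq2 1.42.0 served as alternatives, as did other scalings, filters, subsets of libraries and a replicate block. On simulated counts for this comparison (13591 genes), edgeR called 68% of 100 genes changed 2-fold and 82% of 100 changed 4-fold, with 4 unchanged genes among 154 calls. Unlike the data, where 46.4% of genes were called, the simulation changed only these genes, evenly up and down and with no difference between durations. Its shares may therefore not hold for the data. Sequences and features came from canonical transcripts of GENCODE release 44 (GRCh38), matched by symbol for 97.7% of tested genes. Tables were handled in Python 3.11.15 with pandas 2.3.3 and figures drawn with matplotlib 3.10.9.

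The libraries, gene lists and tests were chosen with earlier results of these data known. Genes were named by rule: the 10 largest falls and rises (called, at 10 CPM or more on average at 0 h, and with no overlap within a duration), up to 2 called members of each of 37 lists in each direction, MYCN, GAPDH, ACTB and METTL3, and the 2 genes of smallest adjusted p in each direction of each difference. The rule named 141 genes. Named after their values were seen were the 12 largest falls outside the histones, the 14 smallest p-values for the difference between durations, and lists of tRNA synthetases and of amino acid and one-carbon enzymes. LDHB, MDH1 and 1 Schwann cell marker were not analysed here, and the results of some genes under the rule are not reported.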

Additional observations from a re-analysis of the deposited data

Results flagged for a closer look

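In 14 of 324 sets of 4 libraries (a named gene at 0 or 6 h) 1 library lay far from the other 3, by a gap above Dixon's 95% critical share of the whole range. Chance gives about 1 set in 20. At 6 h the first library of 6 days held FUT1 at 0.0481 CPM (others 0), H2BC3 at 5.05 CPM (others 1.14 to 1.52), NXT1 at 3.75 CPM (others 0 to 0.579) and RPL36A at 4.33 CPM (others 1.45 to 1.64). It also held CDK2 at 85.4 CPM (others 110.1 to 114) and CHTF18 at 117 CPM (others 156 to 162). The second library of 6 days held H1-3 at 5.64 CPM (others 2.24 to 2.39), HOXD13 at 11.1 CPM (others 2.56 to 3.59) and ATF5 at 29.3 CPM (others 17.1 to 19). The first library of 3 days held HAND2 at 381 CPM (others 352 to 356) and CLK1 at 17.8 CPM (others 24.7 to 26), and the second held TRIB3 at 2.47 CPM (others 0.289 to 0.512). At 0 h the first library of 6 days held RBM15B at 53.6 CPM (others 70.1 to 73.5) and CLK1 at 74.0 CPM (others 61.7 to 63.0).

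The change over 6 h differed between durations in 198 genes and between NGP and Kelly in 464, by edgeR's test of the difference itself. Named genes with a more negative log2 change at 6 days than at 3 days were TRIB3 (-5.54), RGS16 (-3.93), SESN2 (-3.63), ATF5 (-2.91), RASL11B (-2.87), DDIT3 (-2.11), ASNS (-1.63), PSAT1 (-1.54), CARS1 (-1.47), GARS1 (-1.37), JUN (-1.33), DDR2 (-1.20) and EIF5 (-0.48). Those with a more positive change were NXT1 (3.98), INSIG1 (1.74), HSPA5 (1.38), HMGCS1 (1.32), MCL1 (0.65), HSP90AA1 (0.61), ENO1 (0.58), GPI (0.50), FDPS (0.49), HAND2 (0.43) and HSP90AB1 (0.29). NXT1 was at 0.228 and 0 CPM at 3 days and 3.75 and 0.579 CPM at 6 days after 6 h, so its 6 h values rest on few fragments.

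Between the lines, MT-ND1 (1.93) and RND3 (1.80) had a more positive log2 change in NGP than in Kelly, and RTL1 (-2.91) and LAMB1 (-0.96) a more negative one. MT-ND1 is encoded in mitochondrial DNA, and its level at 0 h was close in both lines, whereas RTL1 started at 24.6 CPM in NGP and 723 CPM in Kelly.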

How the results depend on the processing

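The count of genes called at 6 h (6313) was 4782 to 7067 under the alternatives other than scaling to ERCC or to long-lived transcripts, and 5754 to 6172 when 1 library was left out (2777 to 3138 higher, 2977 to 3039 lower). ERCC scaling gave 9948 calls (21 higher, 9927 lower), scaling to long-lived transcripts 64 higher and 8969 lower, and library size alone 1785 higher, since these move the typical gene. The count for the durations (198) was 311 with DESeq2, 864 with ERCC scaling, 372 with all 24 NGP libraries, 355 with no filter on low counts, 0 without a dispersion trend and 135 to 358 with 1 library left out. The lowest of these came without the first 0 h library of 3 days. The 24 NGP libraries include those given STM2457, and they also gave the count of 7067 above. The count for NGP against Kelly (464) was 85 with ERCC scaling and 810 with no filter. Replicate numbers did not pair the libraries: deviations of same-numbered libraries correlated at -0.0045 at 3 days and 0.0295 at 6 days, and the replicate block gave 6139, 229 and 438 calls.

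Among named genes, scalings being recentred to the median gene, 3454 values kept direction and call, 82 lost the call, 30 gained it and 18 reversed; the cause was not tested. Reversals came mostly from using 1 duration. In 3 day libraries alone the log2 change was 0.60 for ASNS, 0.10 for ATF5, 0.47 for CARS1, 0.38 for DDR2, 0.026 for EIF2S2, 0.19 for GARS1, 0.32 for MARS1 and 0.66 for PSAT1, and the list medians were 0.033 for ribosome assembly and -0.15 for cholesterol synthesis. In 6 day libraries alone it was -0.051 for ASS1, 0.12 for HSPA5, -0.11 for METTL3 and -0.29 for MTHFD2. With the length trend removed PSAT1 was at 0.028. With 1 library left out ASNS ranged from -0.45 to 0.032 (0.012 and 0.032 without the first or second 6 h library of 6 days) and PSAT1 from -0.33 to 0.15. Of the list medians 691 kept their value within the spread, 121 moved and 2 reversed. Depth limits genes near 0 at 6 h, such as FUT1, whose fall has no firm upper bound.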
